A study of Mus musculus with 9 samples.

Results

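The genes described here encode the proteins that bring glucose into the heart muscle cell and pass it through glycolysis, lactate formation, glycogen storage and the pentose phosphate pathway. They were listed by name as 35 genes of the 52636 in the table, and all 35 were found. They were measured in left ventricle (LV) tissue of 9 mouse libraries of the C57BL6J background at 16 weeks of age, of which 5 are labelled VDAC2 WT (libraries 1 to 5) and 4 are labelled VDAC2 KO (libraries 6 to 9). The KO removes *Vdac2*, the gene of voltage-dependent anion channel 2 of the outer mitochondrial membrane, through a floxed allele and a Cre driven by the αMHC promoter. That promoter is active in cardiomyocytes, so the other cells of the tissue keep the gene, and WT stands for littermates that carried either the floxed allele or the Cre. No agent was given. The labels do not say that each library came from its own animal, so the p-values here measure only the spread between these libraries.

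The measured level of *Vdac2* went against the labels, and it is this level that set the libraries side by side below. In CPM, which are counts per 1e6 counts of the scaled library, *Vdac2* (chr14:21825238-21845879, GRCm38) read 20.2, 21.3, 20.5 and 19.1 in libraries 1, 5, 7 and 9, and 367, 365, 384 and 421 in libraries 2, 4, 6 and 8. Library 3 stood between them at 58.5 CPM. By level alone, 5 of the 9 libraries go against their labels. Libraries 1, 3 and 5 are labelled WT and had low *Vdac2*, under 100 CPM. Libraries 6 and 8 are labelled KO and had high *Vdac2*, over 300 CPM. In library 3, *Vdac2* was 0.152 of its mean in libraries 2, 4, 6 and 8. The 10 cardiomyocyte markers ran from 0.0818 (*Myh6*) to 3.27 (*Myh7*) of theirs, 9 of them being lowest in library 3. Whether *Vdac2* in library 3 fell with its cardiomyocyte RNA was not tested. With library 3 left out, the set under 100 CPM holds 2 libraries of each label, and so does the set over 300 CPM. These sets were selected on measured values and are not the submitters' groups. No library was given a genotype from them, and the comparison between them is a description without a test. Tests were run only between the deposited labels.

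Library 3 differed from all others in more than *Vdac2*. Mitochondrially encoded genes took 9.07% of its counts, against 16.8 to 19.2% in the other 8 libraries, and its 10 cardiomyocyte markers (*Myh6*, *Tnnt2* and others) summed to 16500 CPM against 56240 to 77010. Of these 10, *Myh7* read 426 CPM against 86.0 to 725 CPM elsewhere, and the other 9 were lowest in library 3. Its 8 fibroblast markers (*Dcn*, *Col1a1*, *Postn* and others) summed to 9634 CPM against 1286 to 2210. Of these 8, 6 were highest in library 3 and 1 was lowest, *Dcn*, at 454 CPM against 561 to 935 CPM. *Col3a1* (4267 CPM), *Postn* (2508 CPM) and *Col1a2* (1412 CPM) made up most of the sum. Library 3 is therefore given apart. The ventricular markers were present throughout, *Myl2* reading 1984 CPM in library 3 and 8597 to 11380 CPM elsewhere. Total counts ran from 27345052 to 44673988 per library, so that 3 counts correspond to 0.0693 to 0.114 CPM. All libraries labelled WT were sequenced in lane 1 and all labelled KO in lane 2, and *Xist* read at most 0.15 CPM in the first and at least 335 CPM in the second, so label, lane and sex cannot be told apart. Differences between low and high *Vdac2* can be taken within each label, and hence within each lane.

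Glucose enters the cardiomyocyte through the transporters GLUT1 (*Slc2a1*) and GLUT4 (*Slc2a4*), the latter moved to the surface by insulin and contraction, and is phosphorylated by the hexokinases. Both hexokinases of the heart can dock on the outer mitochondrial membrane, where VDAC proteins are their binding partners. Phosphofructokinase commits the sugar to glycolysis and is itself switched on by fructose 2,6-bisphosphate, which the PFKFB enzymes make and break. Glucose 6-phosphate can instead be stored as glycogen or sent to the pentose phosphate pathway, which makes NADPH and ribose. The adult heart burns mostly fatty acids and lactate, and a greater use of glucose is a known feature of the fetal and the failing heart.

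The promoters of 4 members whose *Vdac2* sets do not overlap are shown to place them in the genome, 1 for each kind of motif searched, with a short motif of a factor known from glucose or redox genes in capitals. They are read 5′ to 3′ on the gene's strand from RefSeq (GRCm38.p6) and each ends at the base before an annotated start. In *Hk2* (chr6:82774455-82774574, minus strand) the capitals mark the core letters of the hypoxia-inducible factor site, ACGTG on the other strand, from position -52. In *Fbp2* (chr13:62858401-62858520, minus strand) they mark the E-box CACGTG from position -42, which also holds ACGTG. In *Pfkfb1* (chrX:150589756-150589915, plus strand) they mark a MEF2 motif from position -113, and in *G6pdx* (chrX:74428881-74429000, minus strand) the antioxidant element core TGACNNNGC, here on the other strand, from position -57.
Hk2: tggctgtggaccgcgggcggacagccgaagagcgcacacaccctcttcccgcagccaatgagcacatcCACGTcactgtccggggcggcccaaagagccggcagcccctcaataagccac
Fbp2: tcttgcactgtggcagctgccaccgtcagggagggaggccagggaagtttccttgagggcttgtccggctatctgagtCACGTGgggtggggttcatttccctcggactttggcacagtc
Pfkfb1: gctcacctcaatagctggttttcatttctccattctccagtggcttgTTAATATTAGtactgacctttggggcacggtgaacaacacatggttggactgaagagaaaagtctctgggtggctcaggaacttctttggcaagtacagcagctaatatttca
G6pdx: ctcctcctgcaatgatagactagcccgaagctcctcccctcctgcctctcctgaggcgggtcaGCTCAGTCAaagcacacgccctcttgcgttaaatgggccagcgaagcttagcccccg

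These letters are common. Among 32851 promoter windows of 300 bases, searched on both strands, ACGTG was found in 19.6%, CACGTG in 7.15%, TGACNNNGC in 12.4% and the MEF2 motif in 3.19%. Of the 34 members with a window, 18 held ACGTG in at least 1 window, 5 held CACGTG (*Fbp2*, *Ldha*, *Pfkfb2*, *Pfkfb3* and *Pfkm*), 5 held TGACNNNGC (*Aldoa*, *Fbp2*, *G6pdx*, *Hk1* and *Pgd*) and 2 held the MEF2 motif (*Pfkfb1* and *Pgam2*). The 34 members have 53 windows between them, of which 22 held ACGTG, 5 CACGTG, 5 TGACNNNGC and 2 the MEF2 motif. *Slc2a4* was not matched. A match is a run of letters in this window and nothing was measured about binding.

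Between low and high *Vdac2*, the members split without a common direction. Of the 34 members that passed the filter on low counts, 5 were lower in all 4 libraries with low *Vdac2* than in any library with high *Vdac2* (*Hk2*, *Ldhb*, *Pfkfb1*, *Fbp2* and *Gys1*), beside 4.93% of all 16322 genes tested. Another 5 were higher in the same sense (*Pfkp*, *Pgk1*, *G6pdx*, *Pgd* and *Tkt*), beside 7.16% of all genes, and the remaining 24 overlapped. The median difference over the 34 was -0.0229 on the log2(CPM + 0.5) scale, against 0.0008 over all genes. With a difference beyond 0.5 on that scale as well, 2 members were lower (*Pfkfb1* and *Fbp2*; 0.68% of all genes) and 1 was higher (*Pfkp*; 2.43% of all genes). Without library 9 the lower members numbered 9, beside 8.30% of all genes, and without library 6 the higher members numbered 9, beside 8.77%. The libraries being selected on *Vdac2*, nothing about the members is inferred from these counts. The remaining member, *Aldoc*, the brain aldolase, read at most 0.416 CPM in the 8 libraries and 0.755 CPM in library 3 and did not pass the filter.

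**Figure D1:**
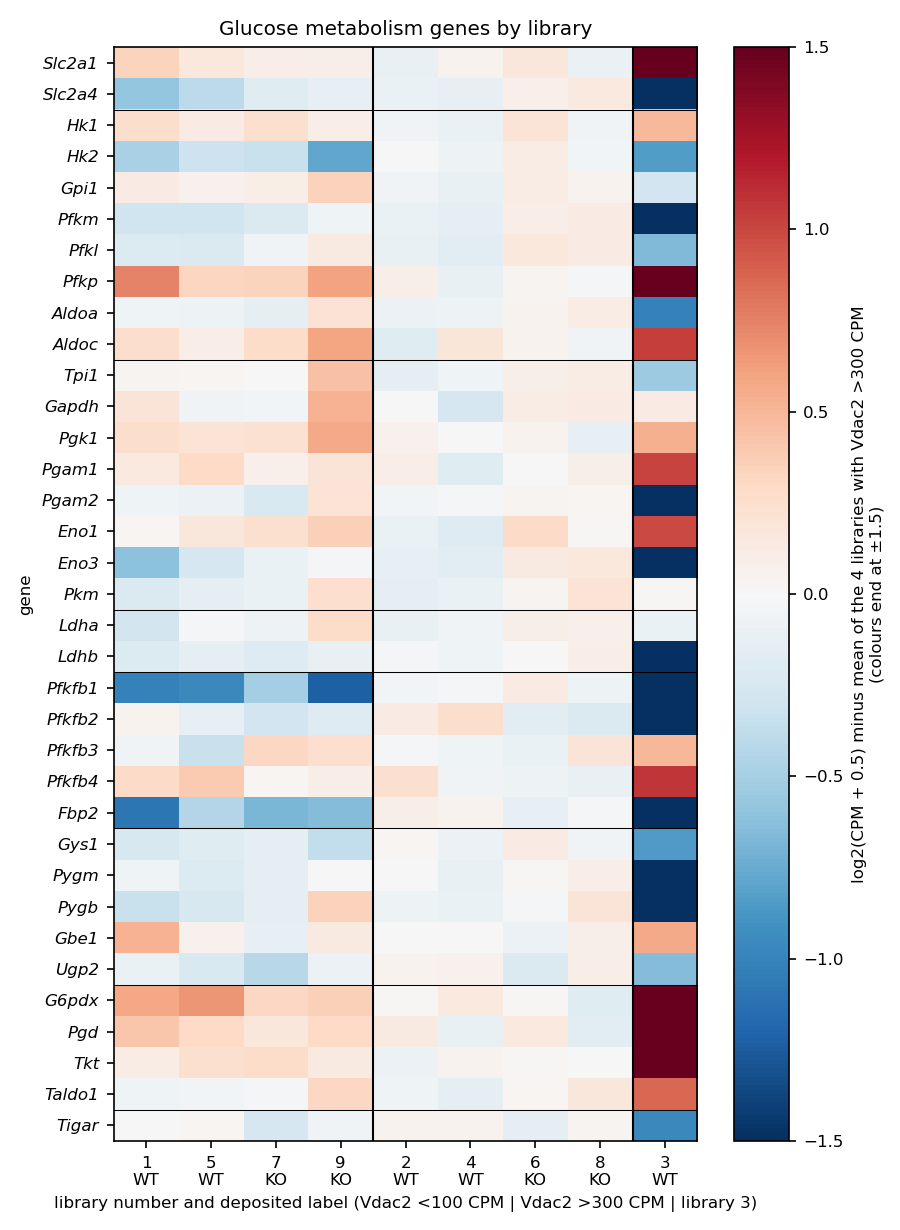
Heat map of the 35 members (rows, grouped by branch) in the 9 libraries (columns, ordered by *Vdac2* level, with the deposited label under each number), coloured by log2(CPM + 0.5) minus the mean of the 4 libraries with *Vdac2* over 300 CPM. *Pfkfb1* and *Fbp2* are blue and *Pfkp* and *G6pdx* red in all 4 libraries with low *Vdac2*, and library 3 has the strongest colours in both directions.

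The regulators of the fructose 6-phosphate step held the largest differences. *Pfkfb1*, the liver and muscle form of the enzyme that makes and breaks fructose 2,6-bisphosphate, read 10.3, 10.7, 14.8 and 8.89 CPM in libraries 1, 5, 7 and 9. In libraries 2, 4, 6 and 8 it read 20.8, 21.2, 23.4 and 20.3 CPM, and in library 3 it read 3.08 CPM. The highest of the low-*Vdac2* libraries was thus below the lowest of the others. The means were 11.2 ± 2.56 and 21.4 ± 1.38 CPM (SD, n = 4 each), a 1.91-fold difference, or -0.93 on the log2 scale, with -0.96 within labelled WT and -0.89 within labelled KO. *Pfkfb1* overlaps *Apex2* on the opposite strand by 73 bases.

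*Fbp2* encodes the muscle fructose bisphosphatase, which runs the phosphofructokinase step backwards. It read 16.0, 25.4, 21.3 and 21.8 CPM in libraries 1, 5, 7 and 9, and 36.6, 35.8, 31.7 and 34.2 CPM in libraries 2, 4, 6 and 8. Again the sets did not overlap, with means of 21.1 ± 3.87 and 34.6 ± 2.17 CPM, a 1.63-fold difference (-0.71 on the log2 scale, -0.83 within labelled WT and -0.60 within labelled KO). Library 3 held 12 counts of *Fbp2*, or 0.324 CPM, 107-fold below the mean of the libraries with high *Vdac2*. No 50-base stretch of the *Fbp2* transcripts occurs in another gene.

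The other regulators overlapped between the sets. *Pfkfb2*, the heart form that is activated by insulin and adrenaline signalling, was the most abundant of the PFKFB genes per length, at 11.4 CPM per kb in the libraries with high *Vdac2* against 5.33 for *Pfkfb1*, 1.17 for *Pfkfb3* and 1.05 for *Pfkfb4*. It read 84.7, 74.8, 66.9 and 71.1 CPM in libraries 1, 5, 7 and 9 and 88.7, 98.0, 72.4 and 70.1 CPM in libraries 2, 4, 6 and 8, and 15.1 CPM in library 3. *Pfkfb3*, whose product makes fructose 2,6-bisphosphate with little reverse activity, read 6.93 to 11.1 and 8.22 to 10.2 CPM, and its difference was -0.14 within labelled WT and 0.23 within labelled KO. *Pfkfb4* read 5.19 to 6.86 and 4.68 to 6.11 CPM. *Tigar*, whose product breaks down fructose 2,6-bisphosphate, read 54.2 to 65.5 and 58.6 to 66.7 CPM.

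In the first steps of glucose use, *Slc2a4*, *Hk2* and *Pfkm* had lower and *Slc2a1*, *Hk1* and *Pfkp* higher means with low *Vdac2*, though only *Hk2* and *Pfkp* did so without overlap. *Hk2*, the insulin-responsive hexokinase of muscle and heart, read 263, 297, 292 and 213 CPM in libraries 1, 5, 7 and 9 and 368, 349, 398 and 358 CPM in libraries 2, 4, 6 and 8. All 4 libraries with low *Vdac2* lay below the others, with means of 266 ± 38.4 and 368 ± 21.4 CPM, a log2 difference of -0.48 (-0.36 within labelled WT, -0.60 within labelled KO). *Hk1*, the hexokinase of most tissues, read 145, 131, 143 and 129 CPM against 116, 112, 139 and 116 CPM in the same order, so library 6 overlapped the low-*Vdac2* set. Library 3 read 205 CPM of *Hk2* and 170 CPM of *Hk1*.

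*Slc2a4*, the insulin-responsive GLUT4, read 256, 290, 338 and 352 CPM in libraries 1, 5, 7 and 9 and 358, 350, 405 and 424 CPM in libraries 2, 4, 6 and 8. Library 9 lay just above library 4, so the sets overlapped, while within each label both low-*Vdac2* libraries were below both others (-0.37 within labelled WT and -0.26 within labelled KO). Such separation within a label is common among all genes, as counted below, and this also applies to *Pfkm* and *Eno3*. With RLE scaling, or with mitochondrially encoded genes left out, *Slc2a4* did not overlap either. *Slc2a1*, the basal GLUT1, read 9.42 to 11.2 and 8.08 to 9.95 CPM. Library 3 had 45.3 CPM of *Slc2a4* and 34.0 CPM of *Slc2a1*, the lowest and the highest of all libraries. In such bulk tissue, fewer cells of a type and less RNA per cell cannot be told apart.

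*Pfkm*, the muscle subunit of phosphofructokinase, was its most abundant subunit and read 730, 732, 774 and 862 CPM in libraries 1, 5, 7 and 9 against 841, 819, 965 and 982 CPM in libraries 2, 4, 6 and 8. Library 9 overlapped the high-*Vdac2* set, and within each label both low-*Vdac2* libraries were lower. *Pfkp*, the platelet subunit, read 114, 85.3, 85.7 and 104 CPM against 72.4, 62.7, 70.0 and 67.1 CPM, without overlap, with means of 97.2 ± 14.3 and 68.1 ± 4.15 CPM. Its log2 difference was 0.50, with 0.55 within labelled WT and 0.46 within labelled KO, and library 3 read 203 CPM. *Pfkp* overlaps *Pitrm1* on the opposite strand by 748 bases. Matched on either strand, 15.4% of the 50-base stretches of the coding transcripts of *Pfkp* occur in another gene, which is this same *Pitrm1*. *Pfkl*, the liver subunit, read 108 to 138 and 112 to 141 CPM.

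**Figure D2:**
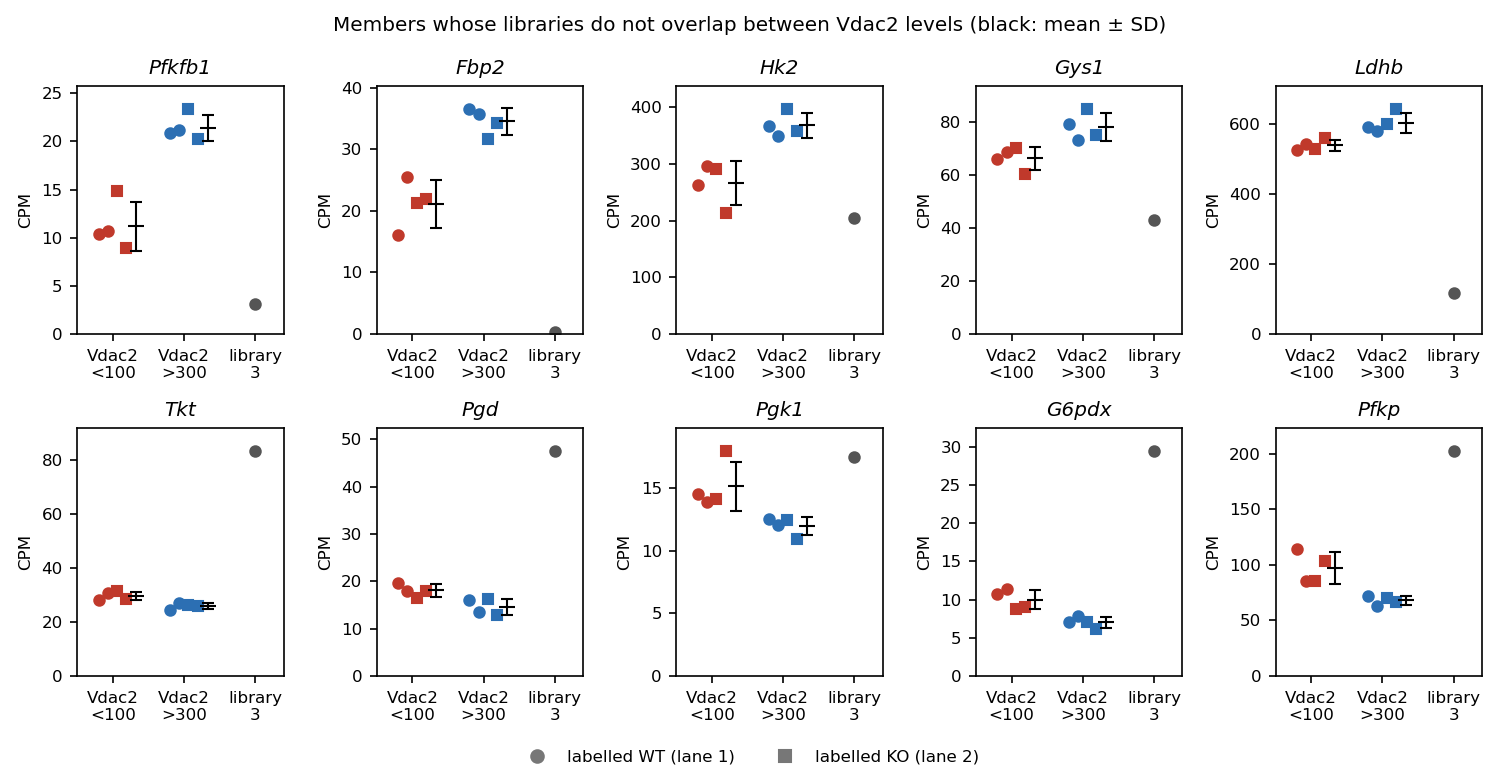
CPM of the 10 members whose sets do not overlap, 1 point per library, for libraries with *Vdac2* under 100 CPM (red), over 300 CPM (blue) and library 3 (grey), with circles for labelled WT, squares for labelled KO and the mean ± SD (n = 4) in black. Each label contributes 2 points to each set, and library 3 lies beyond the low-*Vdac2* set in all panels but that of *Pgk1*, where it reads 17.5 CPM against 18.0 CPM in library 9.

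In the rest of the glycolytic chain most sets overlapped. Per length the most abundant members were *Eno3* (723 CPM per kb in the libraries with high *Vdac2*), the muscle enolase, and *Aldoa* (671), the muscle aldolase. *Aldoa* read 1859, 1850, 1757 and 2259 CPM in libraries 1, 5, 7 and 9 and 1837, 1849, 2029 and 2098 CPM in libraries 2, 4, 6 and 8, a log2 difference of -0.02. *Eno3* read 819, 1052, 1164 and 1222 CPM against 1152, 1108, 1379 and 1392 CPM, a difference of -0.25 in which libraries 7 and 9 overlapped the others, while within each label both low-*Vdac2* libraries were lower (-0.28 and -0.22). *Pgam2*, the muscle phosphoglycerate mutase (289, 284, 259 and 349 against 295, 296, 312 and 308 CPM), and *Pkm*, pyruvate kinase (509, 536, 552 and 706 against 536, 550, 610 and 680 CPM), had differences of -0.04 and -0.05. Library 9 was the highest of all libraries for *Aldoa*, *Pgam2* and *Pkm*. *Gpi1* (glucose 6-phosphate isomerase) and *Tpi1* (triose phosphate isomerase) read 258 to 314 and 488 to 660 CPM with low *Vdac2*, and 229 to 268 and 444 to 526 CPM with high *Vdac2*.

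For 4 members of the lower chain the level itself is uncertain, since much of their sequence is repeated elsewhere in the genome. Of the 50-base stretches in their coding transcripts, the length of a read, 58.4% of *Gapdh*, 68.0% of *Pgk1*, 49.5% of *Eno1* and 41.5% of *Pgam1* occur in another gene, and 213 of the genes that share such a stretch with *Gapdh* are pseudogenes. How reads with several alignments were counted is not given in the sources used here. *Gapdh*, glyceraldehyde phosphate dehydrogenase, read 6.62 to 11.6 CPM over all 9 libraries, or 1.94 CPM per kb with high *Vdac2*, against 178 for *Tpi1*, whose enzyme acts just before it. *Pgk1*, phosphoglycerate kinase, read 14.5, 13.9, 14.1 and 18.0 CPM in libraries 1, 5, 7 and 9 against 12.5, 12.0, 12.4 and 10.9 CPM in libraries 2, 4, 6 and 8. *Pgk1* thus did not overlap (0.32 on the log2 scale), on this uncertain level. *Eno1* (25.8 to 32.6 and 22.1 to 31.1 CPM) and *Pgam1* (1.29 to 1.59 and 0.989 to 1.32 CPM) overlapped.

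**Figure D3:**
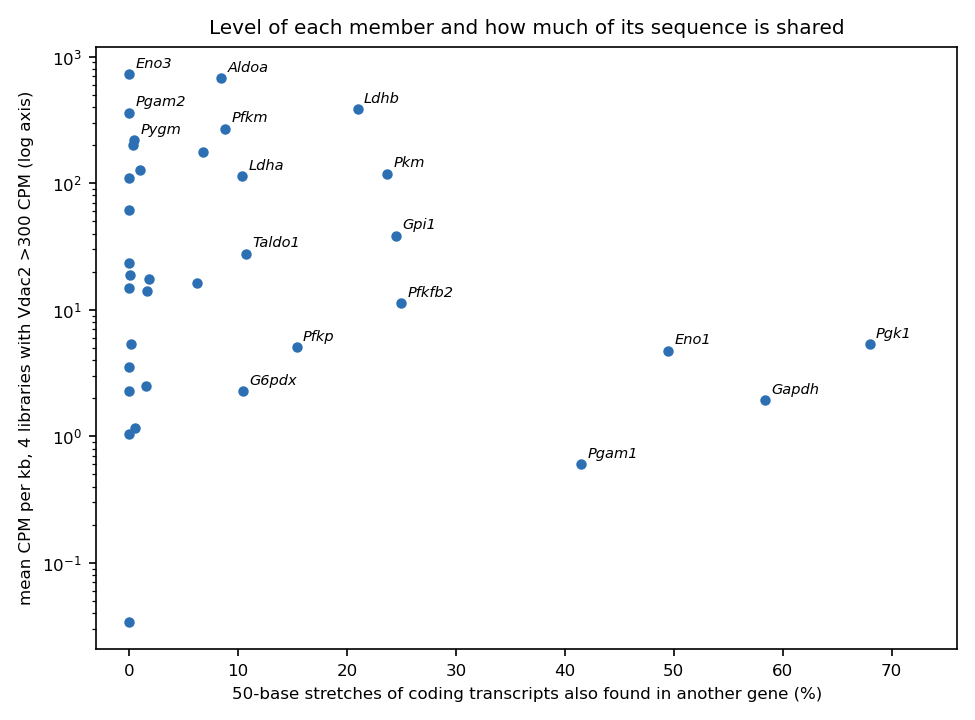
Mean CPM per kb of exon in the 4 libraries with high *Vdac2* (vertical, log axis) against the percentage of 50-base stretches of the coding transcripts that also occur in another gene (horizontal), 1 point per member. *Gapdh*, *Pgk1*, *Eno1* and *Pgam1* stand to the right at 41.5% or more, each with under 6 CPM per kb, and *Aldoc* is the lowest point at 0.0343 CPM per kb.

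Lactate dehydrogenase joins pyruvate and lactate, and its heart subunit, *Ldhb*, is the form of tissues that burn lactate. *Ldhb* read 525, 543, 529 and 560 CPM in libraries 1, 5, 7 and 9 and 592, 579, 600 and 645 CPM in libraries 2, 4, 6 and 8. The sets were close but did not overlap, with means of 539 ± 16.0 and 604 ± 28.5 CPM and a log2 difference of -0.16. *Ldha*, the muscle subunit, read 312, 369, 357 and 457 CPM against 349, 364, 401 and 397 CPM, so that libraries 1 and 9 bracketed all others. Library 3 read 118 CPM of *Ldhb* and 352 CPM of *Ldha*.

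Among the glycogen genes, *Gys1*, the muscle glycogen synthase, was lower with low *Vdac2*. It read 65.8, 68.4, 70.1 and 60.4 CPM in libraries 1, 5, 7 and 9 against 79.3, 73.0, 84.9 and 74.9 CPM in libraries 2, 4, 6 and 8, a log2 difference of -0.24 (-0.18 within labelled WT, -0.29 within labelled KO). *Gys1* overlaps *Ruvbl2* on the opposite strand by 290 bases. *Pygm*, the muscle phosphorylase that releases glucose 1-phosphate from glycogen, was the most abundant of the 5 per length and read 667, 607, 635 and 700 CPM against 696, 645, 710 and 747 CPM. *Pygb*, the brain form, read 756 to 1213 and 891 to 1087 CPM, and *Ugp2*, which makes UDP-glucose for the synthase, 292 to 367 and 334 to 417 CPM. *Gbe1*, the branching enzyme, read 72.3 to 114 and 73.9 to 83.8 CPM, with 114 CPM in library 1 and 118 CPM in library 3.

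Of the 4 pentose phosphate members, 3 were higher with low *Vdac2* without overlap, beside 7.16% of all genes, while 0 of 8 other tested genes of the pathway stood apart in either direction. *G6pdx*, the entry enzyme that makes NADPH, read 10.7, 11.4, 8.78 and 9.07 CPM in libraries 1, 5, 7 and 9 and 7.09, 7.80, 7.11 and 6.09 CPM in libraries 2, 4, 6 and 8. The means were 9.99 ± 1.26 and 7.02 ± 0.703 CPM, a 1.42-fold difference (0.48 on the log2 scale, 0.54 within labelled WT and 0.41 within labelled KO). *Pgd*, which makes the next NADPH, read 19.7, 18.1, 16.5 and 18.1 CPM against 16.0, 13.5, 16.2 and 13.0 CPM (0.30). *Tkt*, the transketolase that returns pentoses to glycolysis, read 28.0, 30.6, 31.3 and 28.5 CPM against 24.4, 27.0, 26.3 and 26.0 CPM (0.19), and *Taldo1*, the transaldolase, overlapped at 57.2 to 74.5 and 54.4 to 67.6 CPM. All 4 were highest in library 3, at 29.5, 47.7, 83.4 and 109 CPM. *G6pdx* overlaps *Ikbkg* on the opposite strand by 278 bases, and *G6pdx*, *Pgk1* and *Pfkfb1* lie on the X chromosome, so their differences are best read within a label.

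Markers of some other cell types moved with the same division of the libraries: the summed fibroblast, macrophage and atrial lists did not overlap, while the summed cardiomyocyte, endothelial, mural, neutrophil, lymphocyte, erythroid, adipocyte and skeletal muscle lists did. The 8 fibroblast markers summed to 2107 to 2210 CPM with low and 1286 to 1661 CPM with high *Vdac2*, all 8 having a higher mean and 4 no overlap. The 6 macrophage markers (*Adgre1*, *Cd68* and others) summed to 337.9 to 501 and 229 to 329 CPM, all 6 having a higher mean and 2 no overlap. The 10 cardiomyocyte markers overlapped in their sum, at 56240 to 66190 and 65980 to 77010 CPM, with 9 of 10 having a lower mean and 1, *Myl3*, no overlap. The 1 with a higher mean, *Myh7*, read 86.0 to 725 and 93.8 to 187 CPM. The 6 endothelial markers summed to 511 to 642 and 616 to 733 CPM, with 5 of 6 having a lower mean and 1, *Pecam1*, no overlap. *Nppa*, a gene of atria and of the stressed ventricle, read 157 to 1523 and 72.8 to 105 CPM, and with it the 6 atrial markers summed to 173 to 1536 and 85.0 to 119 CPM, the other 5 reading at most 13.0 CPM in these 8 libraries. *Myl4* (1.87 to 2.43 and 1.59 to 1.87 CPM) and *Bmp10* (0.132 to 0.214 and 0 to 0.0796 CPM) did not overlap either, while *Sln*, *Myl7* and *Tbx5* did. The 5 adipocyte markers summed to at most 1.05 CPM, with *Lep* at 0 in library 1. The part of these cell types in the differences of *Pfkp*, *Pgk1*, *G6pdx*, *Pgd* and *Tkt*, or in those of *Hk2*, *Ldhb*, *Pfkfb1*, *Fbp2* and *Gys1*, was not tested.

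**Figure D4:**
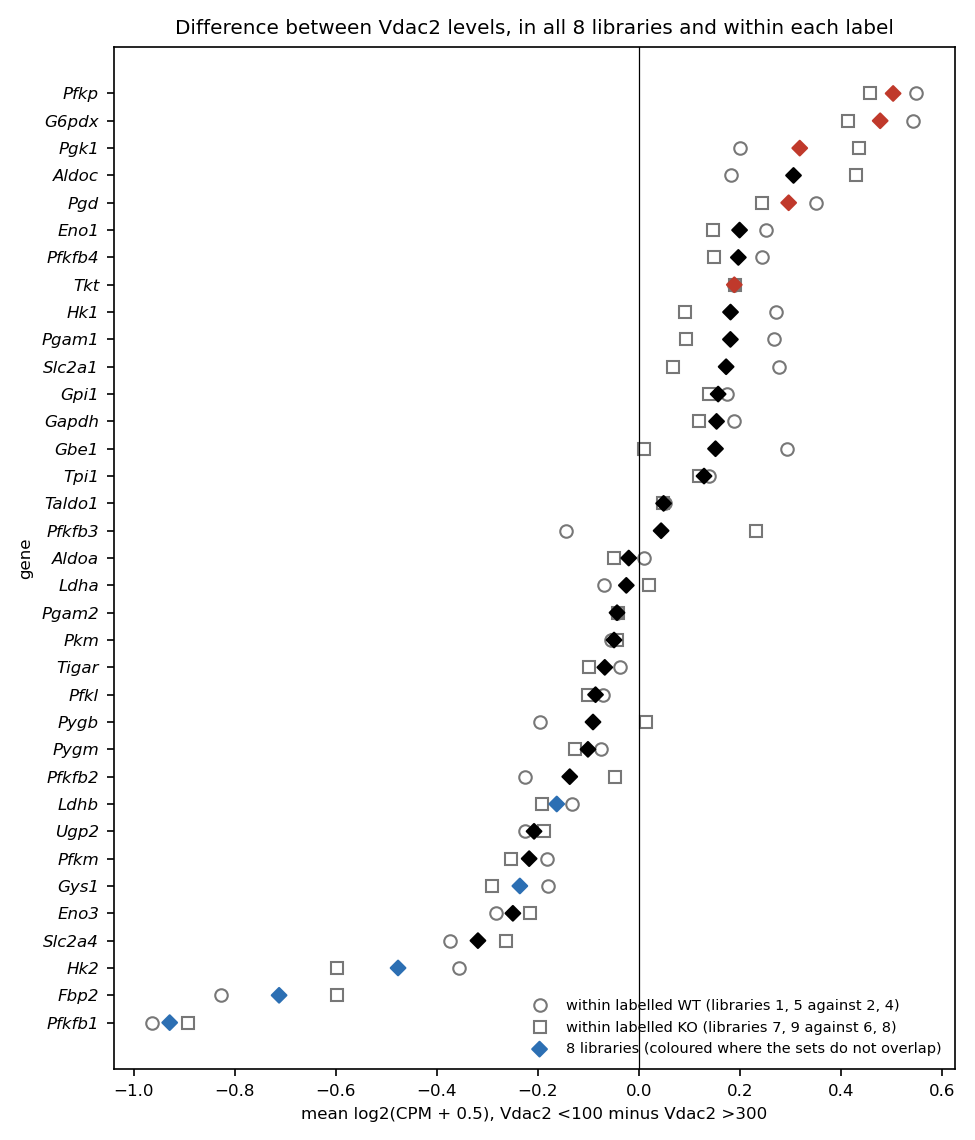
Difference in mean log2(CPM + 0.5) between low and high *Vdac2* for each member, ordered by size, in all 8 libraries (diamonds, blue or red where the sets do not overlap), within labelled WT (circles, 2 against 2 libraries) and within labelled KO (squares, 2 against 2). *Pfkfb1* is at -0.93 and *Pfkp* at 0.50, and *Pfkfb3* is among the members whose circle and square fall on opposite sides of 0.

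Where the sets do not overlap, the sign within each label is fixed by that choice. Of the 24 tested members that overlapped, 20 had a difference of the same sign in both labels, beside 66.8% of all 14349 genes that overlapped. With 2 libraries against 2, sets separate easily: within labelled WT 14 members were lower and 15 higher, beside 23.3% and 24.5% of all genes, and within labelled KO 9 were lower and 7 higher, beside 17.1% and 20.7%.

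Isozyme shares compare forms of an enzyme inside a library, per kb of exon, and so do not depend on scaling. *Hk1* made up 27.8, 23.6, 25.5 and 29.7% of the hexokinase signal (*Hk1* and *Hk2*) in libraries 1, 5, 7 and 9 and 18.1, 18.3, 19.7 and 18.5% in libraries 2, 4, 6 and 8. The libraries with low *Vdac2* were all higher, at 26.6 ± 2.65 against 18.7 ± 0.697%. *Slc2a1* made up 2.59 to 4.15% of the 2 transporters with low and 1.87 to 2.52% with high *Vdac2*. *Pfkm* made up 89.8 to 90.7% of phosphofructokinase against 91.7 to 92.0%, with *Pfkp* at 2.49 to 3.51% against 1.57 to 1.97% and *Pfkl* at 6.69 to 7.21% against 6.32 to 6.68%. *Eno1* made up 0.828 to 1.01% of enolase against 0.591 to 0.724%, on the uncertain level of *Eno1*. *Ldha* (22.0 to 27.9 and 21.9 to 24.0% of lactate dehydrogenase), *Pygb* (43.1 to 53.7 and 46.4 to 49.3% of phosphorylase), *Pgam1* and *Aldoc* overlapped. How often shares of other gene pairs stand apart between these sets was not computed, so nothing is inferred from these separations. The *Hk1* and *Pfkm* shares are built in part from *Hk2* and *Pfkp*, counted above, and are not further results.

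**Figure D5:**
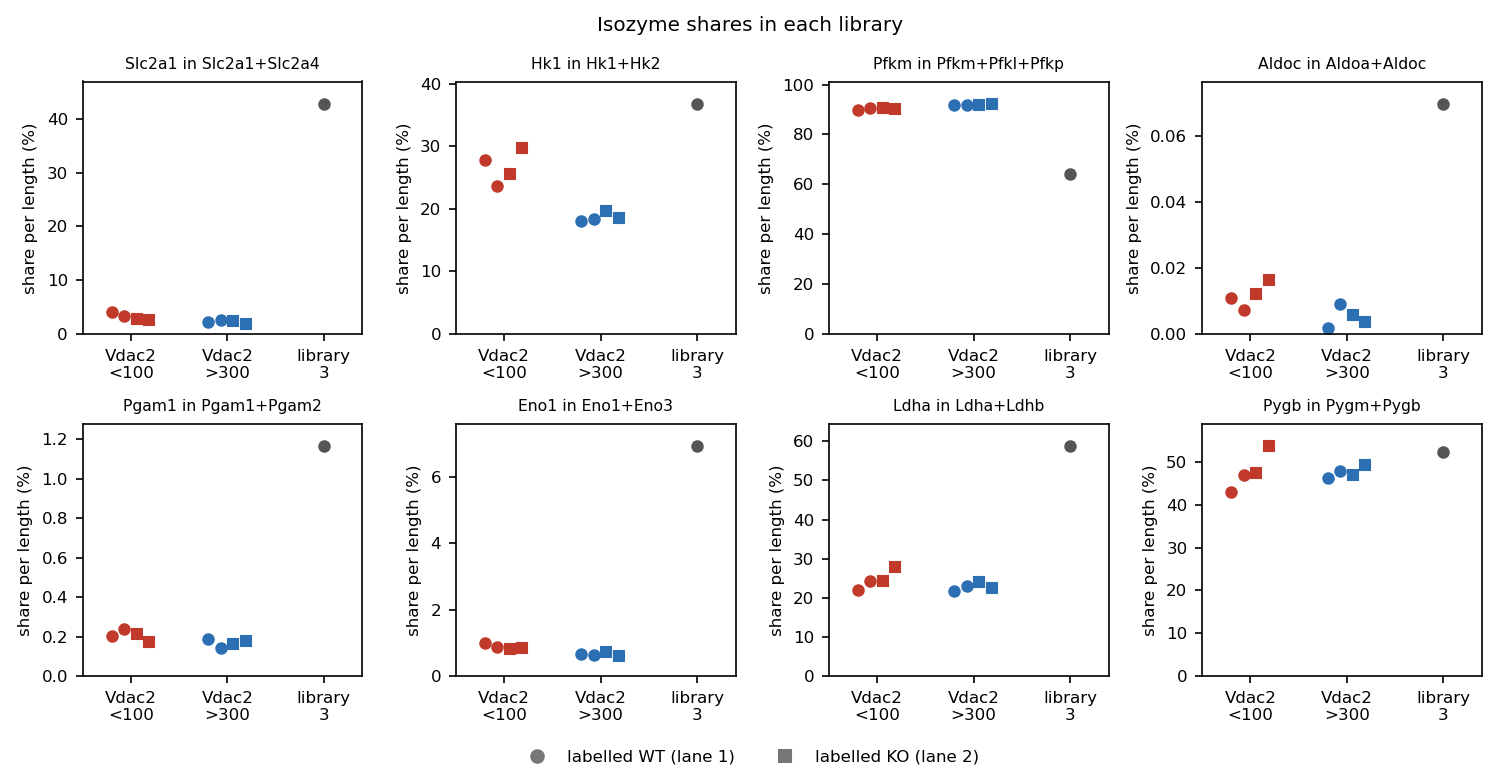
Share of 1 isozyme in its enzyme or transporter (percent, per kb of exon) in each library, for libraries with *Vdac2* under 100 CPM (red), over 300 CPM (blue) and library 3 (grey), circles labelled WT and squares labelled KO. *Hk1*, *Slc2a1* and *Eno1* are higher and *Pfkm* is lower in every red point than in any blue one, and library 3 lies outside the other 8 in all panels but that of *Pygb*.

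Between the deposited labels, no member passed the test. With edgeR's quasi-likelihood test over all genes, 0 of the 34 members had a Benjamini-Hochberg adjusted p under 0.05 (lowest adjusted p = 0.679), beside 0.0551% of all genes (2 higher and 7 lower in labelled KO). At an unadjusted p under 0.05 there was 1 member, and there were 997 genes (6.11%). That member was *Pfkl*, with 105 ± 14.8 CPM in labelled WT (n = 5) and 134 ± 8.65 CPM in labelled KO (n = 4), a log2 fold change of 0.35 (SE 0.12) and an edgeR adjusted p of 0.679. Of the 34, 21 had a higher and 13 a lower fitted value in labelled KO, with a median of 0.14 (0.07 without library 3) against -0.0185 over all genes. DESeq2 called 0 members and gave 4 an unadjusted p under 0.05 (*Pfkl*, *Pfkfb4*, *Pkm* and *Ldha*), beside 4.77% of the 32177 genes to which it gave a p.

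Each label holds both kinds of library, and some members that stood apart by *Vdac2* had wide spreads within it, though *Tkt* read 28.0 ± 2.47 CPM in labelled KO. *Pfkfb1* read 13.2 ± 7.72 CPM in labelled WT and 16.9 ± 6.38 CPM in labelled KO (log2 fold change 0.35, SE 0.50, edgeR adjusted p = 0.802, and 0.09 without library 3). *Hk2* read 296 ± 65.8 and 315 ± 80.9 CPM (0.09, SE 0.22, edgeR adjusted p = 0.891), and its fold change turned to -0.03 without library 3. The pentose phosphate genes all had a lower fitted value in labelled KO (median -0.50), none called, and without library 3 only 2 of the 4 did (median -0.03, *Tkt* at 0.02 and *Taldo1* at 0.20). *G6pdx* read 13.3 ± 9.24 and 7.76 ± 1.41 CPM (-0.78, SE 0.41, edgeR adjusted p = 0.679), the labelled WT mean holding the 29.5 CPM of library 3. Without library 3, edgeR still called 0 members (lowest adjusted p = 0.174), with 11 of 34 at an unadjusted p under 0.05 beside 11.8% of all genes, while 62 genes were called in place of 9. Of the 8 isozyme shares, none passed an exact two-sided permutation test between the labels (lowest p = 0.143, adjusted 0.762, the design allowing no p below 0.0159). The *Hk1* share was 24.9 ± 7.70% in labelled WT and 23.3 ± 5.22% in labelled KO (exact permutation p = 0.810).

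Library 3 was the highest of the 9 for 12 and the lowest for 18 of the 34 members, beside 37.7% and 37.4% of all genes. Against the mean of the libraries with high *Vdac2*, *Fbp2* was 107-fold, *Slc2a4* 8.48-fold, *Pfkfb1* 6.97-fold, *Eno3* 5.70-fold, *Pfkm* 5.59-fold, *Pfkfb2* 5.44-fold, *Ldhb* 5.14-fold and *Pygm* 4.07-fold lower. Of those at the top, *G6pdx* was 4.20-fold, *Slc2a1* 3.85-fold, *Pgd* 3.25-fold, *Tkt* 3.22-fold and *Pfkp* 2.98-fold higher. In the same library *Slc2a1* made up 42.7% of the transporters, *Hk1* 36.7% of hexokinase, *Pfkp* 20.1% of phosphofructokinase and *Ldha* 58.7% of lactate dehydrogenase. This is 1 library with no replicate. Its fibroblast and cardiomyocyte marker sums, given above, moved with these values, with 6 of the 8 fibroblast markers highest and 1, *Dcn*, lowest in library 3. So did its macrophage markers (975 CPM against 229 to 501 in the others, all 6 highest in library 3). Its atrial markers summed to 3357 CPM against 85.0 to 1536, of which *Nppa* was 3347 CPM. *Tbx5*, of the same list, was lowest in library 3, at 5.64 CPM against 10.1 to 13.0 CPM. Its 6 endothelial markers summed to 416 CPM against 511 to 733, with 4 lowest and 1, *Vwf*, highest. Its 6 mural markers summed to 952 CPM against 1185 to 1430, with 2 lowest and 3 highest. The part of these cell types was not tested.

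The other genes of the same pathways are counted in the same way, beside the 4.93% of all genes that were lower and the 7.16% that were higher without overlap. Of 13 other tested genes of glucose uptake and glycolysis, 2 were lower and 1 higher. *Slc16a3*, the lactate exporter MCT4, read 1.81 to 2.29 and 1.24 to 1.48 CPM (0.52) and 33.6 CPM in library 3. Of 20 other glycogen genes, 1 was lower and 3 were higher. *Phkg1*, the muscle catalytic subunit of phosphorylase kinase, read 41.9, 39.1, 40.6 and 49.1 CPM against 27.7, 24.9, 32.0 and 26.8 CPM, a difference of 0.61. Library 3 went the other way, with the lowest *Phkg1* of all libraries at 6.23 CPM.

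Of 15 regulators of glucose genes, 3 were lower and 4 higher without overlap, beside the same 4.93% and 7.16% of all genes. *Mlxipl*, the carbohydrate response factor ChREBP, which binds E-box letters, read 11.1, 10.7, 11.2 and 7.32 CPM with low and 15.5, 13.8, 15.5 and 12.8 CPM with high *Vdac2*, a difference of -0.51. *Myc*, another E-box factor, read 2.92, 3.45, 2.37 and 1.89 CPM against 0.987, 1.41, 1.09 and 1.09 CPM, a difference of 0.92, with 15.2 CPM in library 3. Between the labels, none of the tested genes of these lists had an edgeR adjusted p under 0.05 (lowest 0.679).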

How the data were processed

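The authors extracted total RNA from the left ventricle, removed ribosomal RNA, prepared stranded libraries, sequenced them as single-end reads of 50 bases and deposited raw, unnormalized counts per Ensembl gene on GRCm38. The submitters' processing notes name STAR 2.7.2c, featureCounts 1.6.3 and DESeq2. The annotation release, the strand setting and how multi-mapping reads were counted are not given in the sources used here. The study states that 1 WT sample was removed for RNA quality without naming it, and all 9 libraries were used here.

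Groups tested are the deposited labels. The members and lists were chosen with earlier results of these data known. Counts of 16322 genes (filterByExpr) were fitted with edgeR 4.0.16 (R 4.3.3) using TMM factors and the robust quasi-likelihood F-test, with Benjamini-Hochberg adjustment. CPM are TMM-scaled. Differences between *Vdac2* sets are of log2(CPM + 0.5), which understates changes of low genes, and have no test. The rule gives all values of members without overlap and beyond 0.5, of the most abundant member of a step with several, and names other pathway genes without overlap beyond 0.5. Some results under this rule are not reported here. The other members without overlap, *Hk1*, *Ldha* and *Pkm* are also given in full, chosen after their values were seen. Shares were compared by exact permutation (scipy 1.17.1). Symbols and coordinates are from GENCODE M21 (52489 of 52636 identifiers matched). Depth ran from 27345052 to 44673988 counts, and floors cover counting error only. The fit was tested on simulated counts, with no outcome reported here. Alternatives were DESeq2 1.42.0, limma 3.58.1 with quality weights, other factors, filters and pseudocounts, mitochondrial genes left out, and each library left out.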

Additional observations from a re-analysis of the deposited data

Results flagged for a closer look

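Library 3 lay far from the other libraries labelled WT, by a test of the gap to its nearest neighbour against the range of the group, for 16 of the 36 genes examined (44.4%, the members and *Vdac2*), beside 32.9% of all 16322 genes tested, and for 6 of the 8 shares. Chance flags about 1 in 20 such groups, and no other library stood out in this way for these genes or shares under either label. It was low for *Pfkm* at 161 CPM, *Pfkl* at 79.1, *Aldoa* at 966, *Pgam2* at 105, *Ldhb* at 118, *Pfkfb2* at 15.1, *Pygm* at 172, *Pygb* at 283 and *Tigar* at 32.8 CPM. It was high for *Slc2a1* at 34.0 CPM, *Aldoc* at 0.755, *Eno1* at 50.8, *G6pdx* at 29.5, *Pgd* at 47.7, *Tkt* at 83.4 and *Taldo1* at 109 CPM. Among the shares it was high for *Slc2a1* (42.7%), *Aldoc* (0.0697%), *Pgam1* (1.16%), *Eno1* (6.93%) and *Ldha* (58.7%) and low for *Pfkm* (64.2%).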

How the results depend on the processing

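The count of 0 members called between the labels held under every alternative run, with a lowest adjusted p of 0.111 under limma's quality weights. The count of all genes called moved from 9 to 62 with DESeq2, 77 with quality weights and 0 with at least 10 counts in every library, and it ran from 5 to 62 when 1 library was left out, the 62 being without library 3. Members lower with low *Vdac2* were 14 within labelled WT (23.3% of all genes) and 9 within labelled KO (17.1%) in place of 5, and members higher were 15 within labelled WT (24.5%) and 7 within labelled KO (20.7%). Leaving out 1 library gave 5 to 9 lower members (9 without library 9) and 5 to 9 higher members (9 without library 6). Total-count scaling gave 7 higher members, beside 11.3% of all genes in place of 7.16%, and 5 lower members, beside 2.66% in place of 4.93%. RLE scaling or leaving out mitochondrial genes gave 6 lower members, *Slc2a4* being added, beside 5.46% and 5.38% of all genes. Of the members' single differences, 21 moved beyond the replicate spread when library 3 was added to the low set, that of *Ldhb* was -0.11 with total-count scaling and that of *Aldoc* 0.0962 with 2 CPM added. Shares by raw counts, or per unique 50-base stretch (chosen after seeing the data), changed no test result. The cause of these shifts was not tested, beyond the smaller number of libraries. No paired analysis was possible because the library numbers are not shared between the labels.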
